A study of Danio rerio with 6 samples.

Results

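The genes described here are 10 markers of zebrafish neutrophils and their granules, namely mpx, lyz, npsn, lect2l, cpa5, srgn, illr4, pnp5a, nccrp1 and scpp8. They were chosen by symbol from a table of 15292 genes, and every symbol was present once. Of the 10, 9 passed the filter of a mean of at least 1 TPM and were tested, while npsn was close to 0 throughout. RNA came from the kidney marrow of 6 adult zebrafish, 3 grna-/- fish and 3 grna+/+ siblings, with 1 marrow per library. Blood was first drawn from the heart, and the marrow was broken up by pipette and strained, so all marrow cell types were read together. The labels give no sex, no exact age and no description of the grna lesion, and both groups otherwise received the same handling. TPM is transcript abundance per gene length on a common total, so it is a share of each library. A difference in TPM between libraries therefore also depends on the levels of the other genes in them.

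Neutrophils are phagocytes that kill microbes with enzymes and proteins stored in granules. They mature from progenitors in the marrow, and their granule proteins are made in waves during that maturation, so different granule genes mark different stages. Adult fish form their blood in the kidney marrow, which holds a large pool of neutrophils. mpx and lyz are the markers most used to label these cells in zebrafish. grna encodes a granulin, a secreted and lysosomal growth factor.

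The libraries held between 11080875 and 14075134 counted reads, with 12842 to 13048 genes above 0. grna was at 151, 135 and 146 TPM in grna+/+ replicates 1 to 3 and at 65.2, 73.98 and 71.9 TPM in grna-/- replicates 1 to 3, so every mutant library lay below every control (limma log2 fold change -1.02, SE 0.129, adjusted p = 0.0186). That call was lost when any 1 of 4 libraries was left out (grna+/+ replicate 3 or any mutant), with a highest adjusted p of 0.093. Across all genes tested, 0.493% were called lower and 0.66% higher in grna-/- by limma at an adjusted p under 0.05. Of 12 kidney tubule markers in the table and 16 erythroid markers, none was at 0 in all libraries, so RNA of tubules and red cells was present beside that of neutrophils. grna-/- replicate 2 stood apart, with kidney tubule markers summing to 4205 TPM against 1660 to 2565 TPM in the other 5 libraries. grna+/+ replicate 2 had the lowest erythroid sum, 21985 TPM, against 43656 and 51974 TPM in the other controls.

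The estimated differences between the genotypes varied from marker to marker. Exact permutation tests of ratios between markers, given below, could not go below p = 0.1 with 3 fish per genotype, so unequal changes are not shown. mpx and nccrp1 differed least in their means, lyz and scpp8 lay between, lect2l, cpa5 and srgn averaged 61.0% to 67.8% of the control mean, illr4 averaged 39.7% and pnp5a 12.8%. None of the 9 tested genes passed over all genes by limma, against a background of 0.493% called lower. At an unadjusted p under 0.05, 5 of the 9 were lower and 0 higher, where 7.61% of all tested genes were lower and 10% higher. The members were chosen with earlier results of these data known, so shares over all genes are a description and do not test the set. All 9 fold changes were below 0, which held for 42.5% of tested genes and for 64.1% of the 1148 tested genes with a mean of at least 100 TPM. The median log2 fold change of the 9 was -0.61, beside 0.07 over all tested genes and -0.08 over those at 100 TPM or more. In RNA from whole marrow, fewer neutrophils and less of a transcript per neutrophil cannot be told apart.

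**Figure D1:**
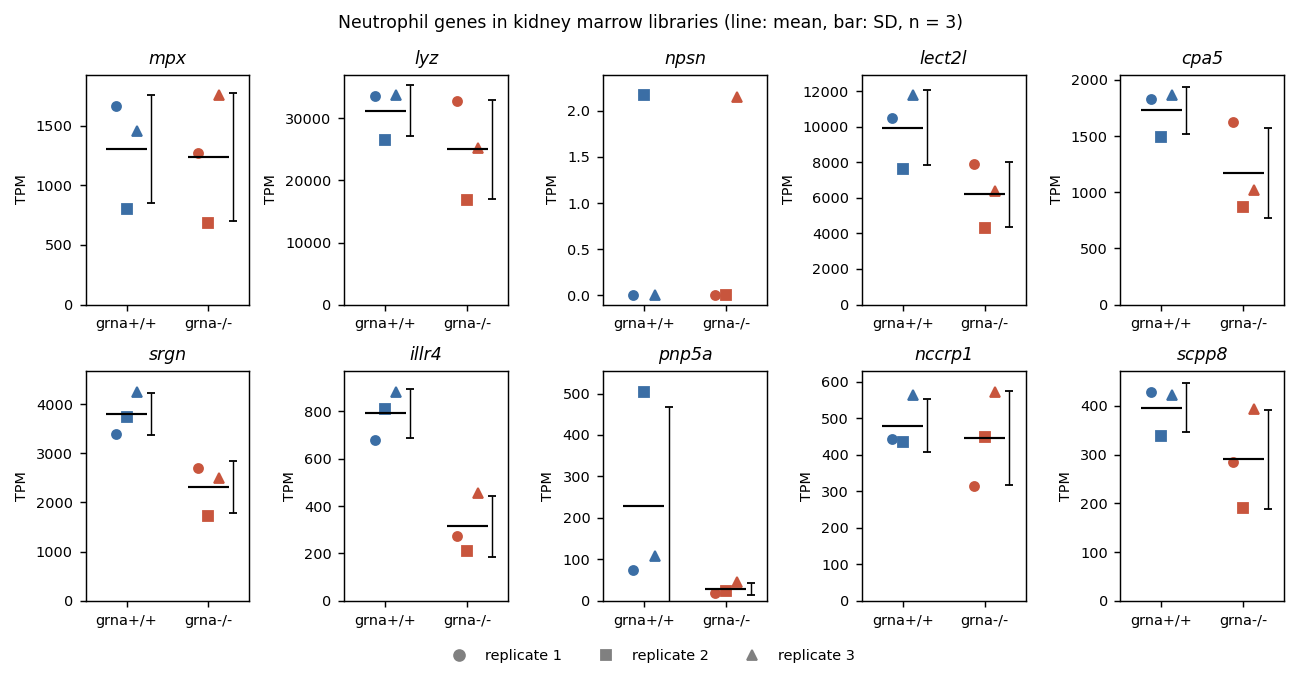
TPM of the 10 neutrophil genes (y axis, starting at 0 except for npsn) in each library by genotype (x axis). Points are fish, with the replicate number as shape. Lines are means and bars are SDs (n = 3), cut at 0 for pnp5a and left out for npsn. The groups stand clear of each other for srgn, illr4 and pnp5a, while mpx and nccrp1 overlap almost wholly.

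Among the granule enzymes, mpx encodes myeloperoxidase, which makes hypochlorous acid. It was at 1661, 798.9 and 1456 TPM in grna+/+ replicates 1 to 3 and at 1267, 682.8 and 1753 TPM in grna-/- replicates 1 to 3. The highest and the lowest of the 6 values were both mutants, so the controls lay inside the mutant range, and replicate 2 was the low fish in both genotypes. The means were 1305 ± 450 and 1234 ± 536 TPM (SD, n = 3 each). Its log2 fold change was -0.12 with a 95% interval of -0.97 to 0.74 (limma adjusted p = 0.89). An interval this wide does not show that mpx held steady, since it takes in a drop to 51.1% of the control level and a rise to 1.66-fold. The sign itself turned to 0.26 without grna-/- replicate 2, to 0.09 without grna+/+ replicate 1 and to 0.03 under quantile normalization, while the value was -0.44 without grna+/+ replicate 2.

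lyz encodes lysozyme C, which cuts bacterial cell walls, and had the third highest mean TPM in the whole table. It was at 33688, 26447 and 33708 TPM in the controls and at 32874, 16920 and 25264 TPM in the mutants. One mutant fish therefore reached the control level, and the other mutants were the lowest libraries of the 6. lyz averaged 31281 ± 4186 and 25019 ± 7980 TPM, a log2 fold change of -0.37 with a 95% interval of -0.87 to 0.14 (limma adjusted p = 0.405). It made up 3.37%, 2.64% and 3.37% of all TPM in the controls and 3.29%, 1.69% and 2.53% in the mutants. Without grna-/- replicate 2 the log2 fold change was -0.11.

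cpa5, a carboxypeptidase gene that in zebrafish also marks mast cells, was at 1830, 1491 and 1861 TPM in the controls and at 1627, 864.9 and 1020 TPM in the mutants. Mutant replicate 1 exceeded the lowest control, so the groups overlapped by that fish. A log2 fold change of -0.61 was estimated with a 95% interval of -1.12 to -0.10 (limma adjusted p = 0.226). Of other genes on the mast cell and eosinophil list, fcer1g lay between 66.6 and 92.2 TPM and gata2a between 9.69 and 33.05 TPM. il4r.1 lay between 4.81 and 54.1 TPM, mitfa between 6.10 and 11.8 TPM and gata2b between 7.08 and 8.34 TPM. kita, a receptor of mast cell precursors, lay between 2.45 and 6.75 TPM, and kitb reached at most 0.395 TPM.

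npsn encodes nephrosin, an astacin-type metalloprotease named for its abundance in the blood-forming kidney of fish. In this table it was at 0, 2.18 and 0 TPM in the controls and at 0, 0 and 2.15 TPM in the mutants. The values correspond to 27 reads in grna+/+ replicate 2 and 28 in grna-/- replicate 3, or a common multiple of these, and to no read in the other 4 libraries. A count of 3 reads would have come to between 0.199 and 0.254 TPM, the limit that a count of 0 allows for counting error alone. The gene entered no test. The locus behind the deposited npsn row is not known here, so values this low do not show that nephrosin transcripts were absent from the marrow. A second row was under npsnl, given as an older symbol in RefSeq. It reached at most 0.361 TPM and was not used, because the members were taken by their listed symbols. Whether both rows count the same gene is not known here.

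srgn encodes serglycin, the proteoglycan core that packs charged proteins into granules. It was at 3399, 3731 and 4247 TPM in the controls and at 2710, 1722 and 2506 TPM in the mutants. The lowest control stood above the highest mutant, and the spread was small, 1.25-fold among controls and 1.57-fold among mutants. The mean went from 3793 ± 427 to 2313 ± 522 TPM, 61.0% of control. In limma the log2 fold change was -0.73 (SE 0.173) with a 95% interval of -1.13 to -0.34 and an adjusted p of 0.0949. With the replicate number as a block the adjusted p was 0.0487.

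lect2l, related to the leukocyte chemotaxin LECT2, was the second most abundant of the 10. It was at 10475, 7623 and 11759 TPM in the controls and at 7920, 4288 and 6380 TPM in the mutants. A single pair of fish overlapped, control replicate 2 and mutant replicate 1. The means were 9952 ± 2117 and 6196 ± 1823 TPM, and the log2 fold change was -0.71 (SE 0.233, 95% interval -1.24 to -0.17, limma adjusted p = 0.199). The replicate block gave an adjusted p of 0.0222, with differences of -0.40, -0.83 and -0.88 on the log2 scale in same-numbered pairs 1 to 3. Without grna-/- replicate 2 the log2 fold change was -0.46 (limma adjusted p = 0.372).

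scpp8 belongs to the secretory calcium-binding phosphoproteins, a family best known from mineralized tissue. Its levels were 428, 338 and 421 TPM in the controls and 286, 191 and 394 TPM in the mutants. One mutant lay within the control range and the others below it. limma estimated a log2 fold change of -0.50 with a 95% interval of -1.07 to 0.07 (limma adjusted p = 0.329), and -0.23 without grna-/- replicate 2.

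illr4 and nccrp1 had unlike estimates. illr4 encodes a C-type lectin-like receptor of the immune-related illr family. It was at 680.2, 809.5 and 881.0 TPM in the controls and at 272.3, 212.2 and 456.7 TPM in the mutants, and the highest mutant was well short of the lowest control. The mean went from 790 ± 102 to 314 ± 128 TPM, for a log2 fold change of -1.40 (SE 0.259) with a 95% interval of -1.99 to -0.80. The limma adjusted p of 0.0515 just missed the threshold, and it was 0.0144 with the replicate block. The level rested on 2116 to 8289 reads per library, so counting error was small beside the spread between fish. Leaving out any 1 library kept the log2 fold change between -1.70 and -1.15, and the adjusted p was 0.0221 without grna-/- replicate 3 and 0.063 to 0.176 without any other library.

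nccrp1, first described in catfish as a receptor of nonspecific cytotoxic cells, was at 441.8, 433.7 and 562.2 TPM in the controls and at 314.6, 448.4 and 572 TPM in the mutants. The lowest and the highest fish were both mutants, so the control values lay inside the mutant range. Its log2 fold change was -0.14 with a 95% interval of -0.64 to 0.36 (limma adjusted p = 0.759), and its sign turned without grna-/- replicate 1 (0.09). illr4 was above nccrp1 in each of the 3 controls and below it in each of the 3 mutants. This pair was picked after the values were seen, and the change of order was not tested.

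pnp5a, a purine nucleoside phosphorylase gene of the nucleotide salvage pathway, had the lowest mean TPM after npsn. It was at 75.3, 504 and 109 TPM in the controls and at 19.7, 23.2 and 45.3 TPM in the mutants. All mutants were below all controls, but control replicate 2 was 6.69-fold above control replicate 1. A log2 fold change of -2.51 was estimated (SE 0.648, 95% interval -4.00 to -1.02, limma adjusted p = 0.125), and the adjusted p was 0.0542 with the block. Without grna+/+ replicate 2 the log2 fold change was -1.69 (adjusted p = 0.09). The same library also held the highest levels of mmp9 (4089 TPM against 284 to 1021 TPM elsewhere) and timp2b (909 TPM against 58.2 to 300.3 TPM), and the part of that library in the pnp5a result was not tested beyond leaving it out.

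With the replicate number as a block, 3 of the 9 tested members passed and were lower in grna-/-, namely illr4, lect2l and srgn, and none was higher, beside 1.13% of all tested genes called lower and 1.39% called higher in that fit. The labels do not state that these numbers pair fish, so the blocked calls rest on an assumed pairing. Same-numbered mutants were lower in all 3 pairs for 7 of the 9, all but mpx and nccrp1, which held for 19.3% of tested genes. Without regard to numbers, the groups did not overlap and the mutants were lower for 3 of the 9, srgn, illr4 and pnp5a, and higher for 0, beside 10.6% and 14% of tested genes. In the fit without a block, 0 of the 9 passed with all libraries and 0 without grna+/+ replicate 2 and grna-/- replicate 2 together. The median log2 fold change was -0.52 without those libraries. The blocked fit was not run without them, so the blocked calls were not checked in this way. grna-/- replicate 2 was the lowest library for 7 of the 9, a position it held for 20.1% of tested genes. With that library left out the median of the 9 was -0.42, and mpx was then the one member with a fold change above 0. The part of its higher kidney tubule level in these values was not tested.

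**Figure D2:**
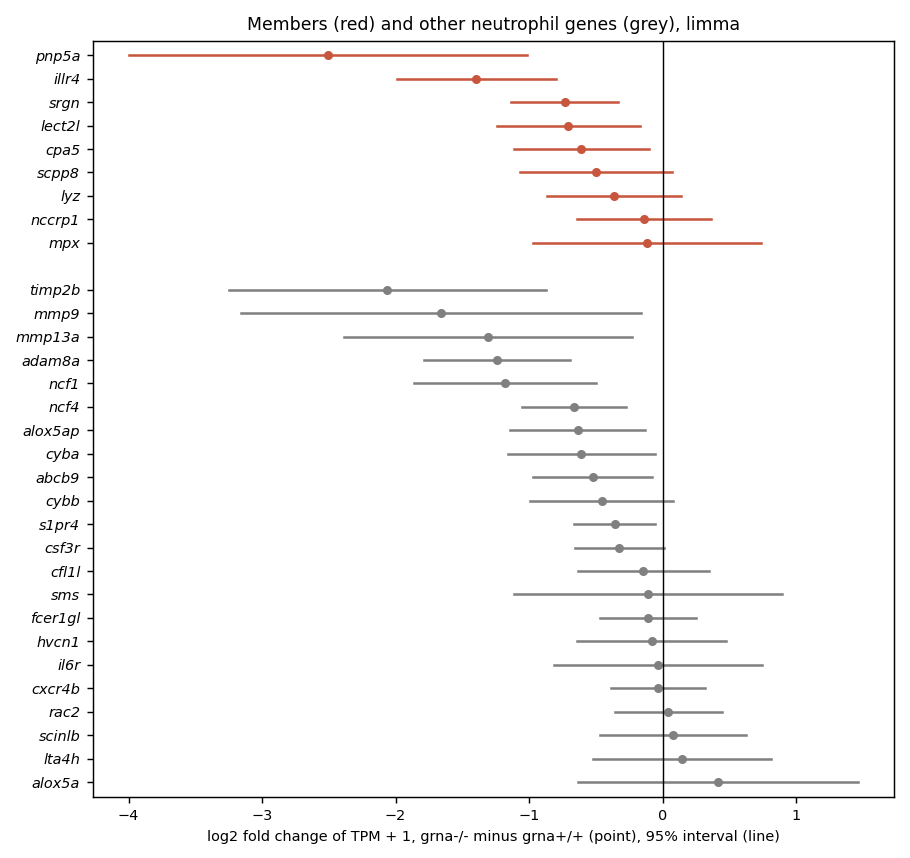
Log2 fold change of TPM + 1 between genotypes (x axis, grna-/- minus grna+/+) for the 9 tested members and other neutrophil genes (y axis). Points are limma estimates and lines 95% intervals. The intervals of pnp5a, illr4, srgn, lect2l and cpa5 lie below 0, and those of scpp8, lyz, nccrp1 and mpx include 0; none passed after adjustment over all genes.

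The order of levels shifted little at the top of the set. In the controls lyz was followed by lect2l and srgn, each clear of the next in every library. cpa5 and mpx overlapped (1491 to 1861 and 798.9 to 1661 TPM), as did mpx and illr4 at the edge of their ranges. nccrp1 and illr4 did not overlap in the controls, and nccrp1 stood just above scpp8, whose highest value was 428 TPM against 434 TPM for the lowest nccrp1. pnp5a, from 75.3 to 504 TPM, overlapped both. In the mutants lyz, lect2l and srgn kept these places, mpx and cpa5 were again interleaved, nccrp1, illr4 and scpp8 overlapped each other, and pnp5a was the lowest of the tested genes in every library. The 10 genes together took 5.27%, 4.22% and 5.50% of TPM in the controls and 4.73%, 2.54% and 3.84% in the mutants, so the groups overlapped. lyz was 61.3% to 63.9% of this sum in the controls and 65.8% to 69.5% in the mutants.

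Ratios inside a library do not depend on the TPM total, so the other 8 tested members were divided by mpx and, as an alternative, by lyz. Such a ratio is free of other cells only where both genes are read from neutrophils alone. cpa5 and srgn are also on the mast cell and eosinophil list. The ratio of illr4 to mpx was 0.410, 1.01 and 0.605 in the controls and 0.215, 0.311 and 0.261 in the mutants. It was lower in every mutant than in any control, with a mean log2 ratio of -0.66 ± 0.66 in controls and -1.95 ± 0.27 in mutants (SD, n = 3 each). An exact two-sided permutation test gave p = 0.1, the smallest that 3 against 3 allows, and 0.267 after adjustment over the 8 ratios. The ratios of lect2l and pnp5a to mpx also separated the genotypes, with mean log2 differences of -0.59 and -2.43. The pnp5a difference was -1.29 without grna+/+ replicate 2, and the lect2l difference was -0.33 without grna-/- replicate 3. For lect2l the gap was narrow, 6.31 in the lowest control against 6.28 in the highest mutant. These 3 of 8 ratios compare with 1.02% of 10690 tested genes above 0 in all libraries whose ratio to mpx was lower in every mutant, and 0 of 8 with 6.73% whose ratio was higher. This background, like that for lyz below, holds genes of all cell types, so it does not show what neutrophil genes do against each other. The ratios share the mpx values, and mpx itself was unsteady, between 682.8 and 1753 TPM.

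Against lyz, 4 of the 8 ratios were lower in every mutant, those of illr4, pnp5a, lect2l and cpa5, beside 1.23% of the same 10690 genes, and 0 were higher, beside 23.9%. The ratio of lect2l to lyz was 0.311, 0.288 and 0.349 in the controls and 0.241, 0.253 and 0.252 in the mutants. cpa5 followed lyz closely in the controls, at 0.0543, 0.0564 and 0.0552, and was at 0.0495, 0.0511 and 0.0404 in the mutants. The ratio of illr4 to lyz was 0.0202, 0.0306 and 0.0261 in the controls and 0.00828, 0.0125 and 0.0181 in the mutants. srgn overlapped narrowly, with 0.101 in the lowest control and 0.102 in the highest mutant. scpp8 kept nearly one ratio to lyz in the controls, 0.0125 to 0.0128, and spread from 0.00869 to 0.0156 in the mutants. Exact two-sided permutation tests gave p = 0.1 for each of the 4 separated ratios and 0.2 after adjustment over the 8. The ratio of lyz to mpx itself was 20.3 to 33.1 in the controls and 14.4 to 25.95 in the mutants, so the groups overlapped in part (mean log2 difference -0.25, exact permutation p = 0.6).

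**Figure D3:**
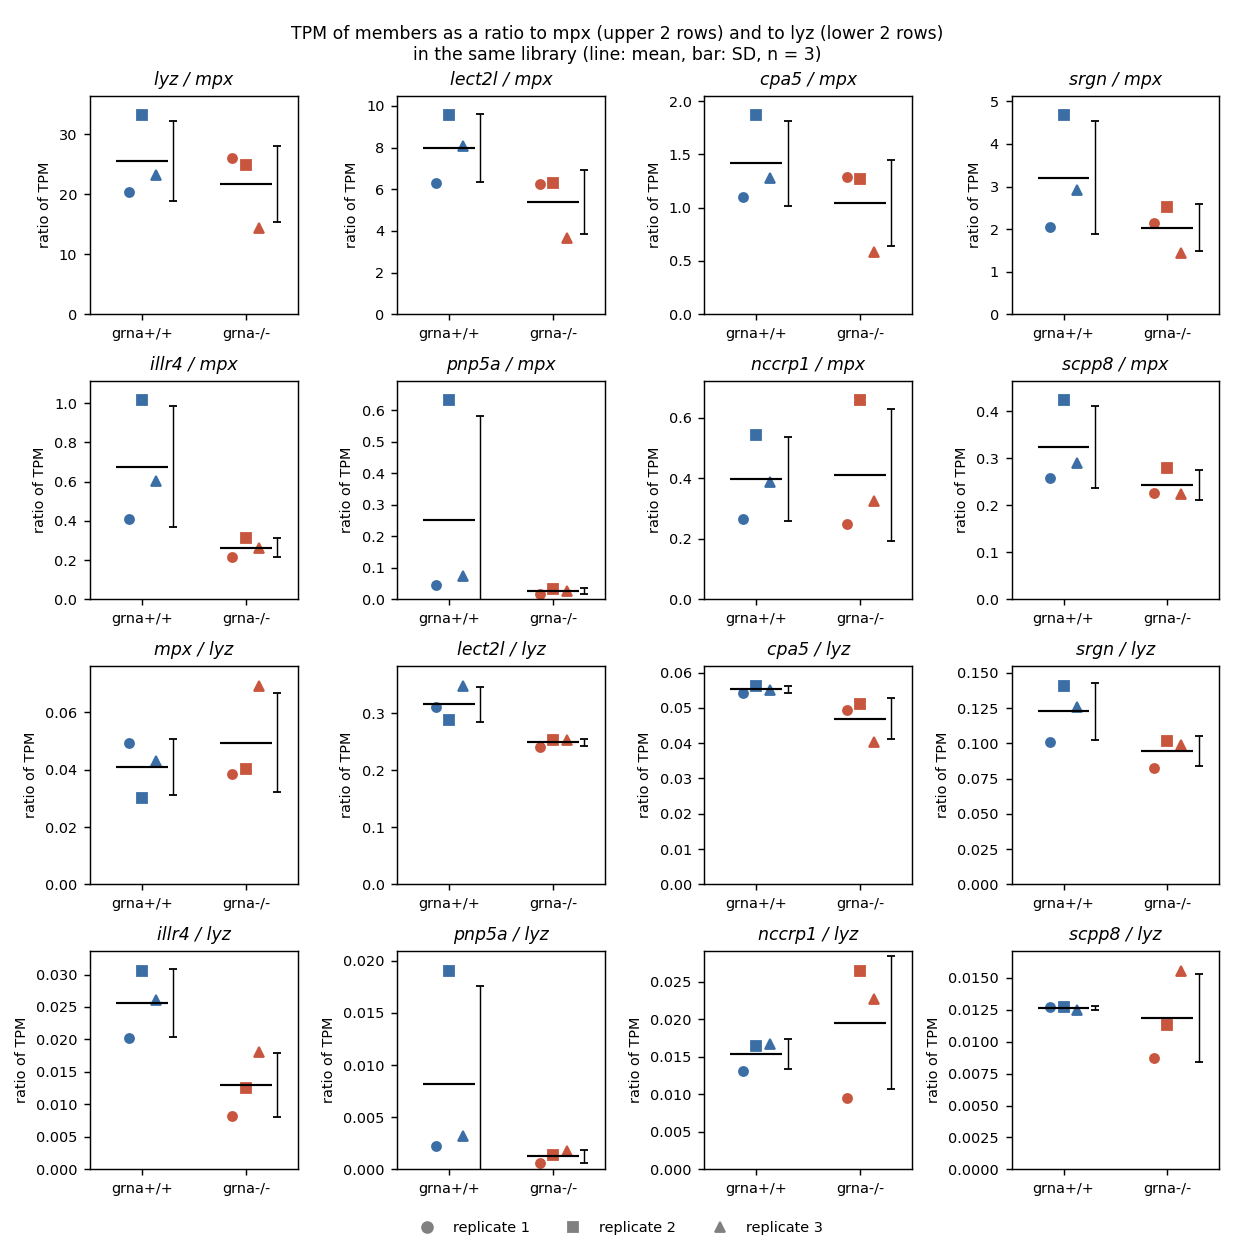
TPM of 8 members divided by that of mpx (upper 2 rows) or of lyz (lower 2 rows) in the same library (y axes, starting at 0), by genotype (x axes). Points are fish, lines means and bars SDs (n = 3), cut at 0 for pnp5a. illr4, lect2l and pnp5a separate the genotypes under both references, and cpa5 only against lyz.

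Genes with the most similar pattern were sought for mpx, lyz and illr4. Likeness was the root mean square difference of centred log2(TPM + 1) values over the 6 libraries, searched over 6217 named genes with a mean of at least 10 TPM. il6r, the interleukin 6 receptor gene, was nearest to mpx (0.117), followed by the kinase gene mapk12b (0.156). The actin regulator gene vaspa (0.0978) and the selectin ligand gene selplg (0.111) were nearest to lyz. hyal3, a hyaluronidase family gene (0.244), and pigrl2.3, a polymeric immunoglobulin receptor-like gene (0.246), were nearest to illr4. The values searched hold the genotype difference, so the search itself selects genes that are lower in the mutants, as illr4 is. hyal3 was at 173.5, 140.2 and 208.8 TPM in the controls and at 79.6, 50.5 and 91.2 TPM in the mutants (limma adjusted p = 0.0573). pigrl2.3 fell, to no overlap, with 361.9, 417.9 and 394.8 TPM in the controls and 133.1, 89.4 and 145.7 TPM in the mutants (log2 fold change -1.69, limma adjusted p = 0.0105, and 0.0508 without grna+/+ replicate 3). pigrl genes form a family of similar copies, so its level is uncertain. Among the members themselves, cpa5 was nearest to lyz (0.162), scpp8 to mpx (0.307) and srgn to illr4 (0.417).

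Other neutrophil genes varied as widely, from timp2b at a log2 fold change of -2.06 to alox5a at 0.41. Of 30 listed, 24 were in the table and 23 were tested. None was called by limma, 11 were lower and 0 higher at an unadjusted p under 0.05, beside 7.61% and 10% of all tested genes. This list too was chosen with earlier results of these data known, so the shares do not test it. Of the 23 estimates 19 were negative (median log2 fold change -0.36, beside 0.07 over all tested genes). The groups did not overlap, with mutants lower, for 9 of the 23, beside 10.6% of all tested genes. adam8a, a membrane metalloproteinase-disintegrin gene, was at 580, 890 and 801 TPM in the controls and at 394, 224 and 354 TPM in the mutants (log2 fold change -1.24 with SE 0.238, limma adjusted p of 0.0567 alone and of 0.0461 under the block). The oxidase organizer gene ncf1 was at 631, 1480 and 965 TPM and at 368, 380 and 554 TPM (adjusted p of 0.117 alone and of 0.0457 under the block). These were the 2 genes of the list called with the block, beside 1.13% of all tested genes called lower. In the fit without a block, none of the 23 was called either with all libraries or without both replicates numbered 2. The blocked fit was not run without those libraries.

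The oxidase gene ncf4 averaged 80.6 ± 9.81 and 50.6 ± 7.71 TPM (limma adjusted p = 0.12). timp2b, an inhibitor of metalloproteinases, had an adjusted p of 0.117, and alox5ap, which helps make leukotrienes, had a log2 fold change of -0.64 (adjusted p = 0.214). At the other end, il6r, cxcr4b, rac2, scinlb and lta4h had log2 fold changes between -0.03 and 0.15, and alox5a encodes the lipoxygenase that works with alox5ap (adjusted p = 0.65). These 6 were picked after their values were seen. cxcr4b, the receptor that holds neutrophils in the marrow, was at 1793, 1219 and 1521 TPM in the controls and at 1485, 1303 and 1602 TPM in the mutants.

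Of 12 tested transcription factors of granulocyte formation, 1 fell and none rose, beside 0.493% called lower and 0.66% called higher over all genes. The median log2 fold change of the 12 was -0.28, beside 0.07 over all genes. cebpa, required for the step from progenitor to granulocyte, fell, with 875, 1320 and 1004 TPM in the controls and 542, 607 and 515 TPM in the mutants (limma adjusted p = 0.0457). Its log2 fold change was -0.92 (SE 0.16) and ran from -1.06 to -0.76 over 17 alternatives, but the call was lost in 9 of them, including when any 1 library other than grna+/+ replicate 1 was left out. cebpb, which drives granulocyte output under stress in mammals, was at 1171, 1914 and 1575 TPM and at 906, 930.3 and 929.5 TPM (adjusted p of 0.0907 alone and of 0.0463 under the block). cebpd, linked to granule gene expression in mammals, was at 131, 229 and 165 TPM and at 78.5, 120.0 and 53.9 TPM (adjusted p of 0.149 alone and of 0.0373 under the block). cebp1, the fish C/EBP factor of late granulocytes, was at 383, 359 and 363 TPM in the controls and at 296, 284 and 351 TPM in the mutants (adjusted p = 0.325), and it was named after its values were seen. irf8, which favours macrophage over neutrophil fate, was at 96.1, 62.3 and 86.7 TPM in the controls and at 105, 112 and 110 TPM in the mutants (adjusted p = 0.266). cebpg and spi1a had log2 fold changes of -0.64 and -0.70 (adjusted p = 0.251 and 0.319).

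Of 28 listed relatives 19 were in the table, 9 were tested and none was called by limma. At an unadjusted p under 0.05, 3 were lower and 0 higher, beside 7.61% and 10% of all tested genes. illr1, a second lectin-like receptor gene, was at 28.4, 20.8 and 18.5 TPM in the controls and at 20.2, 20.4 and 22.3 TPM in the mutants. pnp5b, the closest named relative of pnp5a, was also highest in control replicate 2, with 20.1, 73.2 and 28.9 TPM in the controls and 12.4, 15.3 and 13.9 TPM in the mutants (log2 fold change -1.28, limma adjusted p = 0.185). Reads may be shared between close copies, so the values of pnp5a and pnp5b are uncertain where their sequences match. pnp6 averaged 97.3 ± 50.98 and 159 ± 59.6 TPM (adjusted p = 0.346). The lysozyme G-like gene lygl1 averaged 202 ± 33.9 and 382 ± 292 TPM (adjusted p = 0.433), with 719.8 TPM in mutant replicate 3. c6ast1, another astacin protease gene, averaged 50.3 ± 19.1 and 31.0 ± 4.32 TPM (adjusted p = 0.263).

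Other marrow cell types were read beside the neutrophil markers. Erythroid markers summed to 43656, 21985 and 51974 TPM in the controls and to 82950, 96002 and 84174 TPM in the mutants, without overlap, and 6 of 15 tested rose (nt5c2l1, ank1a, sox6, creg1, alas2 and epb41b) with 0.66% called higher over all genes. None of the 15 was called without grna+/+ replicate 3, grna-/- replicate 1 or grna-/- replicate 2, and 1 was without grna-/- replicate 3. With the replicate block 8 were called, beside 1.39% of all tested genes called higher in that fit. TPM is a share, so a larger share of some genes leaves a smaller one for the rest. The part of the erythroid level in the neutrophil values was not tested. A refit took only the listed erythroid genes out of the total. It rescales each library by 1 factor, so all genes move nearly alike, and it cannot show the part of red cell RNA as a whole. With the erythroid list taken out of the total, illr4 had a log2 fold change of -1.32, srgn -0.66, lect2l -0.63 and mpx -0.04. In the reported fit these were -1.40, -0.73, -0.71 and -0.12. Macrophage markers summed to 1935, 2717 and 1999 TPM and to 1927, 1622 and 2533 TPM, with 0 of 13 tested called by limma. At an unadjusted p under 0.05, 2 were lower and 1 higher, beside 7.61% and 10% of all tested genes. The macrophage genes with the smallest p were ctss2.1 and ctss2.2, cathepsin S genes with log2 fold changes of -0.59 and 0.72 (adjusted p = 0.07 and 0.207). Their part in the neutrophil result was not tested.

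On the thrombocyte list f13a1a.1, a coagulation factor XIII gene, fell. None of the other 7 tested genes was called, beside 0.493% of all tested genes called lower and 0.66% higher. f13a1a.1 was at 88.7, 394 and 50.3 TPM in the controls and at 0.278, 0.408 and 1.48 TPM in the mutants (limma adjusted p = 0.009, and 0.0558 without grna-/- replicate 2). At an unadjusted p under 0.05, 3 genes of the list were lower and 1 higher, beside 7.61% and 10% of all tested genes. gp1bb, a receptor subunit, had the next smallest p there, at 18.3 to 32.7 TPM in the controls and 45.99 to 74.5 TPM in the mutants. Its limma adjusted p was 0.089 alone and 0.0415 under the block, beside 1.39% of all tested genes called higher in that fit. On the mast cell and eosinophil list il4r.1, a cytokine receptor gene, averaged 30.5 ± 20.7 and 5.46 ± 0.568 TPM (limma adjusted p of 0.0526 alone and of 0.0297 under the block). srgn, which is also a member, had the next smallest p. None of the 8 tested was called without the block and 2 were called lower with it, beside 1.13% of all tested genes. At an unadjusted p under 0.05, 3 were lower and 0 higher, beside 7.61% and 10%. Of the 8 estimates 6 were below 0, and gata2a (log2 fold change 0.69) and kita (0.30) were above. None of 12 lymphoid markers was called by limma or had an unadjusted p under 0.05. The smallest p there were those of nkl.3 and nkl.4 (adjusted p = 0.342 and 0.383). None of 9 tested progenitor markers was called, with 1 lower and 2 higher at an unadjusted p under 0.05, beside 7.61% and 10% of all tested genes. lmo2 averaged 37.4 ± 11.5 and 61.9 ± 8.32 TPM (adjusted p = 0.17) and fli1a 105 ± 9.78 and 72.9 ± 14.1 TPM (adjusted p = 0.197). None of 12 tested kidney tubule markers was called, with 0 lower and 3 higher at an unadjusted p under 0.05, beside the same 7.61% and 10%. Of these markers slc12a3 and slc20a1a had the smallest p (log2 fold changes of 1.05 and 0.77, limma adjusted p = 0.0776 and 0.222). With the block, slc12a3 and slc13a3 were called higher (limma adjusted p = 0.0291 and 0.0207), beside 1.39% of all tested genes called higher in that fit.

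**Figure D4:**
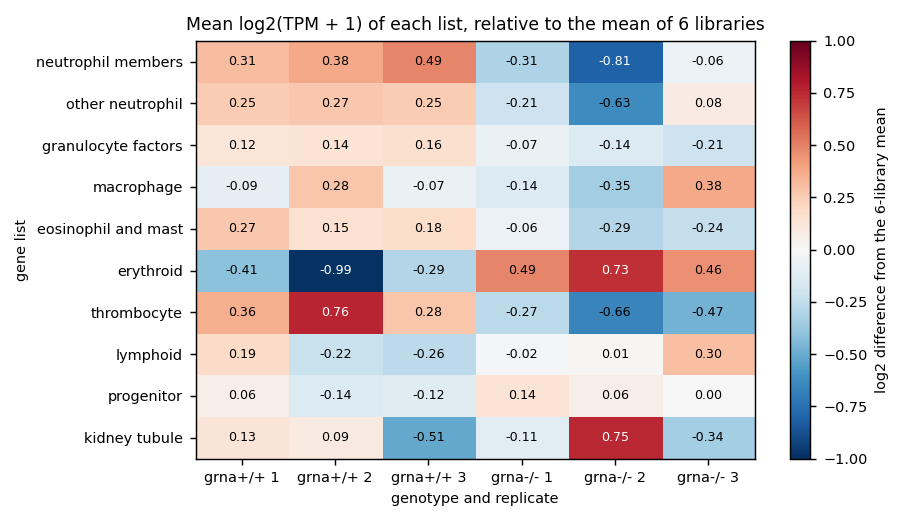
Mean log2(TPM + 1) of the tested genes of each list (y axis) in each library (x axis), as the difference from the mean of the 6 libraries, by colour and printed value. The 9 tested neutrophil members are on average above 0 in all controls (0.31 to 0.49) and below 0 in all mutants (-0.81 to -0.06), and the lowest mutant is also the highest for kidney tubule genes (0.75). Genes count equally in this mean, and pnp5a spans 25.6-fold over the libraries, against at most 4.15-fold for the other tested members. The mean without pnp5a was not taken. mpx and nccrp1 are highest in grna-/- replicate 3.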

How the data were processed

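The authors deposited 1 table of TPM with a column per library; its last row, Total, names no gene and was read as the number of counted reads. The submitters' processing notes name featureCounts, Subread, DESeq2 1.26.0, GRCz10 and danRer10 without saying which made the TPM; whether strand was used is not stated in those notes or the labels.

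Genes with a mean of at least 1 TPM (10750) were fitted in limma 3.58.1 (R 4.3.3) on log2(TPM + 1) with genotype alone, trended moderation, two-sided tests and Benjamini-Hochberg adjustment over all of them, at 0.05. This scale understates changes of low genes. The fit was tested only on simulated data with changes larger than those estimated for all tested members but pnp5a, so smaller changes were not checked. Reads were recovered from the steps of the TPM values (relative tolerance 1e-09), which gave whole numbers for 200 of 200 genes checked and for 0 of 200 after random shifts of up to 0.1%; a factor common to all libraries cannot be seen. Replicates were separate fish. Same-numbered fish deviated together weakly (correlations over genes of 0.136, 0.153 and 0.237, each above the bound of 0.1). The labels state no pairing, and fish with different numbers were not compared, so a pairing is not shown. The replicate numbers of the titles were used as a block on this reading of the data. Blocked values are given where they change a call.

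Members and lists were chosen with earlier results of these data known. Named genes were the members, grna, called genes and those of smallest p on each list (6 for neutrophil genes and factors, 2 for cell types), relatives with at least 10 TPM, and the 2 genes most like mpx, lyz and illr4. Others are said to be picked later, except mmp9, npsnl and the mast cell and eosinophil genes set beside cpa5, most of which also lie outside this rule. A list gene that the rule takes in is not reported here. Names were checked against a RefSeq table of another build, so no coordinates are given. Promoter motifs were planned but not analysed here.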

Additional observations from a re-analysis of the deposited data

How the results depend on the processing

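Each member was refitted under 17 alternatives. The log2 fold change of illr4 ran from -1.70 to -1.13 with limma adjusted p of 0.00136 to 0.176. That of srgn ran from -0.86 to -0.53, and cpa5, lect2l, lyz, pnp5a and scpp8 also kept their sign in all 17. Not all 17 could change a sign. Other filters, the fit without a trend, a robust form of the moderation and the block leave each estimate as it was. Leaving out libraries cannot turn the sign of srgn, illr4 or pnp5a, whose groups did not overlap. mpx reversed under quantile normalization (0.03), without grna+/+ replicate 1 (0.09) and without grna-/- replicate 2 (0.26), in a range of -0.44 to 0.26 when 1 library was left out. nccrp1 reversed without grna-/- replicate 1 (0.09; range -0.34 to 0.09). Its ratio to mpx reversed without grna+/+ replicate 2 (0.23), grna-/- replicate 1 (0.28) or grna-/- replicate 3 (0.08; range -0.42 to 0.28), and the ratio of lyz to mpx without grna-/- replicate 3 (0.02; range -0.40 to 0.02). No member was called in the reported fit, against 3 with the replicate block, 5 with library weights and 1 (lyz) under quantile normalization, with 0 to 1 when 1 library was left out. Other neutrophil genes called lower numbered 2 with the block and 11 with library weights, and 0 to 2 when 1 library was left out. The block and library weights also called more of all genes, so these counts belong beside the totals given below. The number of members whose ratio to mpx separated the genotypes was 3 to 5 when 1 library was left out. Leaving out a library cannot undo a separation, so this count could not fall below the 3 of all libraries and is no check of them. Over the same 10750 genes, 53 were lower and 71 higher in the reported fit, against 122 and 149 with the replicate block and 791 and 1656 with library weights. Quantile normalization gave 57 and 66, and the fit without a trend 30 and 46. With other filters there were 23 and 36 at a mean TPM of at least 10, and 21 and 23 without a filter. The counts were 26 and 27 without both replicates numbered 2, an alternative chosen after seeing the data, and 5 to 92 lower and 10 to 112 higher when 1 library was left out. Taking the erythroid list out of the total moved the median of all genes to 0.13, and library weights to 0.11. The causes of these changes were not tested. A stricter promoter motif was not run, for want of sequences in the tables used. With 3 fish per genotype, the spread between fish limits these calls; the tested members had 498 to 195415 reads per library.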
